A study of Mus musculus with 6 samples.

Results

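The actin gene family comprises the 6 mammalian actin genes, Acta1, Acta2, Actc1, Actb, Actg1 and Actg2, and here it was measured in the quadriceps muscle of mice by microarray. Its members were taken by name, from the transcript accession that the array files give for each probe, and not by any measured value. This gave 10 of 56583 probes: 3 for Acta2, 3 for Actg1, and 1 each for Acta1, Actc1, Actb and Actg2. All 10 were well above background on all 6 arrays, so all 10 passed the filter on dim probes and entered the test.

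The arrays came from 6 male mice of the AR97Q line, 1 array a mouse, taken when the mice were 9 weeks old. The line carries a transgene of the human androgen receptor with 97 CAG repeats on a C57BL/6J background and models SBMA, spinal and bulbar muscular atrophy, in which motor neurons and muscle degenerate. Both groups carried the transgene, and muscle of wild-type mice was not analysed here, so every difference below is one between 2 groups of transgenic mice. The promoter of the transgene is not given in the sources used here. The 3 mice of the exercise group ran on a forced wheel at 5 m/min for 60 min a day, 5 days a week, for 4 weeks from 5 weeks of age, and their tissue was taken on the day after the last bout. The 3 mice of the sedentary group had no such training.

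Actin is the protein of the thin filament of muscle and of the microfilaments of every cell. The 6 genes encode nearly identical proteins and differ mainly in where they are active. Acta1 encodes skeletal muscle alpha-actin, the thin filament actin of adult skeletal fibres. Actc1 encodes cardiac alpha-actin, which skeletal muscle also makes before birth and during regeneration. Acta2 and Actg2 encode the alpha-actin and gamma-actin of smooth muscle, found in the walls of blood vessels and hollow organs, and Acta2 is also made by pericytes and by activated fibroblasts. Actb and Actg1 encode the cytoplasmic beta-actin and gamma-actin that all cells use. Transcription of several of these genes depends on serum response factor (SRF), which binds a short element called the CArG box together with cofactors of the myocardin family. Of those cofactors, Mrtfa and Mrtfb are themselves held back by unpolymerized actin.

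The promoter element that several actin genes share is shown first, because it is the best known feature common to their control. In the RefSeq table of mouse promoters (GRCm38.p6), 4 of the 6 genes had a window, namely Acta1, Acta2, Actc1 and Actg1. Actb and Actg2 had none. The 250 bases before each gene's start were searched on both strands for the CArG box, which is CC, then 6 bases that are each A or T, then GG, and for a relaxed form in which 1 of those 6 bases is C or G. The stretches below run 5′ to 3′ on the minus strand, on which all 4 genes lie, from 10 bases before the first box to the last base before the start, with both kinds of box in capitals.
Acta1, chr8:123894776-123894990: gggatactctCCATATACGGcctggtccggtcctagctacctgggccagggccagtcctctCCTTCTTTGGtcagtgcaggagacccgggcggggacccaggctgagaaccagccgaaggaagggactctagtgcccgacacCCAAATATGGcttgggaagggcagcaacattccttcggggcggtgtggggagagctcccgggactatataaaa
Acta2, chr19:34255374-34255467: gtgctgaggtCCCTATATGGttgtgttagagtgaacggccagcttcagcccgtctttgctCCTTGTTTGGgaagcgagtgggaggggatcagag
Actc1, chr2:114052876-114053060: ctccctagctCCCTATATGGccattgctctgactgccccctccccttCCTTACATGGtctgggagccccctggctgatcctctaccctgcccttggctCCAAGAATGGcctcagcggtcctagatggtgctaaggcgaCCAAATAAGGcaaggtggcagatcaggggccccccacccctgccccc
Actg1, chr11:120348496-120348595: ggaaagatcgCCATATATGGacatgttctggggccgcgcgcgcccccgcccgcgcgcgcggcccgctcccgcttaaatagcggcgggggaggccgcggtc
A CArG box had its first base 73 bases before the start of Acta1, 47 bases before that of Actc1 and 90 bases before that of Actg1. None lay in the Acta2 window, which had relaxed boxes at 84 and 34 bases before the start. Relaxed boxes also lay at 205 and 154 bases in Acta1 and at 175, 138 and 87 bases in Actc1. Of 32851 windows of this length, 1.47% held a CArG box and 7.24% a relaxed box. The letters CATTCC, an element bound by TEAD factors in muscle genes, lay in the Acta1 window at 46 bases and in the Acta2 window at 146 bases, as in 12.6% of all windows, and TATAAA lay only in that of Acta1 among the 4, at 7 bases, as in 12.4%. These matches describe the letters of the windows. Binding was not measured.

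All values below are log2 of the processed signal minus the 75th percentile of its array, called the scaled log2 signal, unless the unscaled signal is named. The 75th percentile ran from 251 to 257 over the exercise arrays but from 310 to 384 over the sedentary ones, so scaling raised the exercise values relative to the sedentary values. An array had 54.6 to 59.9% of its probes well above background, 0 spots were saturated, and the correlation between any 2 arrays was between 0.979 and 0.993 over the tested probes. The slide holds its arrays in 2 strips. All 3 exercise arrays and sedentary replicate 1 lay in one strip and sedentary replicates 2 and 3 in the other, so the difference from sedentary replicate 1 alone, called the within-strip value, is given beside the called actin probes and the called list genes that are named. The tissue carried its defining markers: all 7 skeletal fibre genes examined, among them Ckm, Mb and Ttn, were well above background on all 6 arrays. Probes have different affinities, so no probe's level is set against that of another as an amount of RNA. Probe sequences were not in the files used, so how far a probe of one actin gene also binds the RNA of another was not tested. In whole muscle, fewer cells of a type and less RNA in each cell cannot be told apart.

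Of the 10 actin probes, 5 differed between the groups at a limma adjusted p under 0.05, with 3 higher and 2 lower after exercise. The 3 higher probes were the Acta1 probe, the brightest Acta2 probe and 1 of the 3 Actg1 probes, and the 2 lower probes were the other Acta2 probes. Over all 32726 probes tested, 10.5% were higher and 5.65% lower at that threshold, 16.2% in all. The groups were apart for those 5 actin probes and overlapped for the others, and they were apart for 41.8% of all probes. With the absolute log2 fold change of at least 1 that the study required for a differentially expressed gene (DEG), 1 actin probe was upregulated, the brightest Acta2 probe, and 0 were downregulated, against 1.57% and 0.987% of all probes. At an unadjusted p under 0.05, 3 actin probes were higher and 2 lower, where 11671 of all 32726 probes passed in either direction. The methods' t-test with Benjamini-Hochberg adjustment called 1 higher and 0 lower at the DEG threshold. With sedentary replicate 1 left out there were 2 upregulated actin probes, Acta1 and the brightest Acta2 probe, whereas with any of the other 5 arrays left out there was none. The 5 probes kept their sign without each of those 5 arrays, but their limma adjusted p then lay between 0.0603 and 0.103. With the strip as a block it was at least 0.157. The median log2 fold change was 0.02 over all probes tested.

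**Figure D1:**
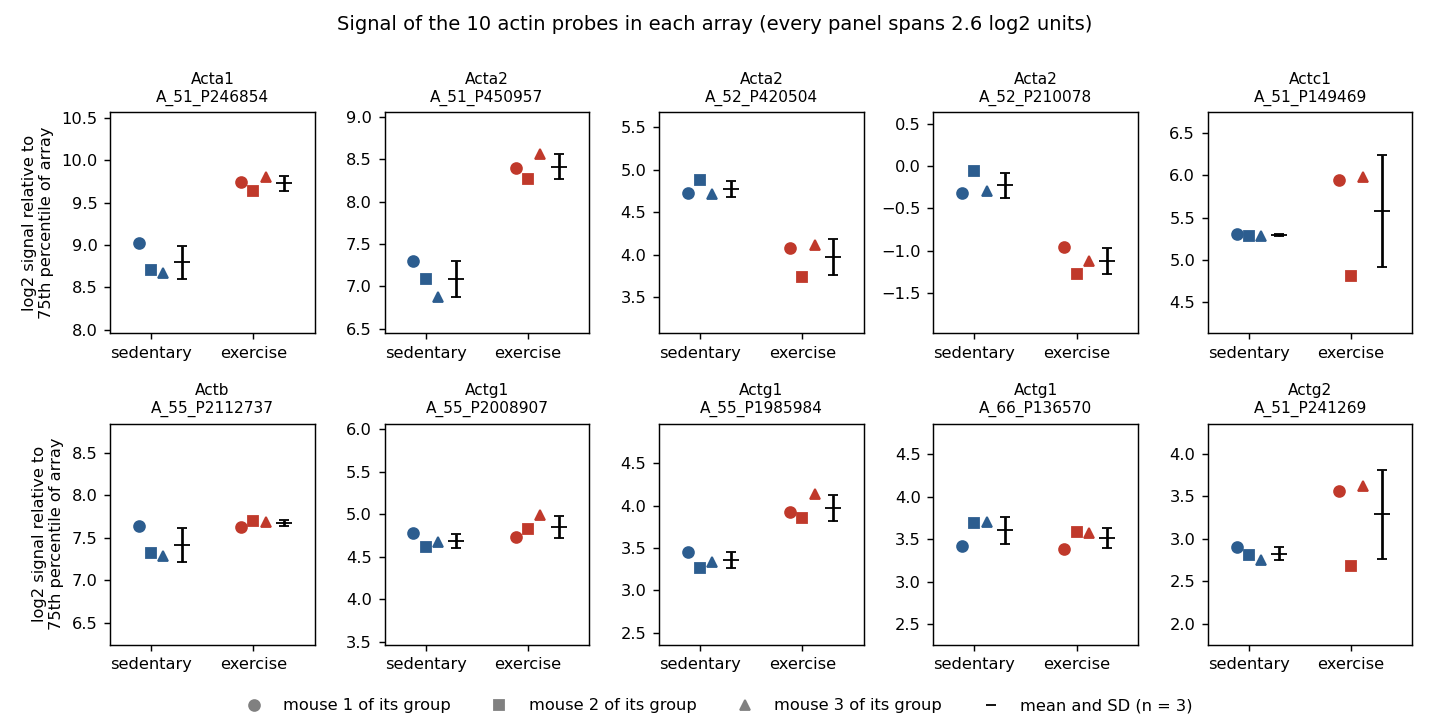
Scaled log2 signal (log2 of the processed signal minus the 75th percentile of the array) of the 10 actin probes on the 3 exercise and 3 sedentary arrays, 1 panel a probe, with the group mean and SD (n = 3) in black beside them. Every panel spans the same range of log2 units. Acta1, the brightest Acta2 probe and the Actg1 probe A_55_P1985984 lie higher on every exercise array, the other Acta2 probes lie lower, and the groups of the remaining 5 probes overlap.

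Acta1, the skeletal alpha-actin, was higher on every exercise array. Its scaled log2 signal was 9.74, 9.63 and 9.80 on the exercise arrays and 9.02, 8.70 and 8.66 on the sedentary arrays. The lowest exercise value lay above the highest sedentary value, as was the case for 24% of all probes. Acta1 thereby averaged 9.72 ± 0.09 in the exercise group and 8.80 ± 0.19 in the sedentary group (SD, n = 3 each), a log2 fold change of 0.93 (SE 0.12, 95% interval 0.63 to 1.23, limma adjusted p = 0.0240), or 1.91-fold. This is just under the log2 fold change of 1 of a DEG. The rise was present before scaling too: the processed signal was 219765, 203175 and 224255 on the exercise arrays and 160940, 154351 and 155739 on the sedentary arrays, 1.37-fold higher as geometric means, although the exercise arrays were dimmer as a whole. Over the scalings and background corrections tried the log2 fold change of Acta1 was between 0.38 and 1.02, and against sedentary replicate 1, the only sedentary array in the same strip, it was 0.71. The lowest value was that with spike-in scaling, where Acta1 did not pass the threshold (limma adjusted p = 0.0823).

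The cytoplasmic actins, often used as reference genes, had smaller differences between the groups than Acta1. The Actb probe read 7.63, 7.69 and 7.69 in the exercise group and 7.64, 7.31 and 7.29 in the sedentary group. The exercise values lay close together, and sedentary replicate 1 lay among them while the other sedentary arrays lay below. Actb averaged 7.67 ± 0.03 and 7.41 ± 0.20 (SD, n = 3 each), a log2 fold change of 0.26 (SE 0.12, 95% interval -0.03 to 0.54, limma adjusted p = 0.175), which did not pass the threshold and turned negative with quantile normalization (-0.11), without scaling (-0.22) and with spike-in scaling (-0.29). Against sedentary replicate 1 alone the difference of Actb was 0.03, and without that array it was 0.37 (limma adjusted p = 0.0385).

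Actg1 had 3 probes and they did not move alike. The brightest, A_55_P2008907, read 4.73, 4.82 and 4.99 in the exercise group and 4.78, 4.62 and 4.67 in the sedentary group, with a log2 fold change of 0.16 (SE 0.10, 95% interval -0.09 to 0.41, limma adjusted p = 0.311). Its groups overlapped, and its sign turned with quantile normalization (-0.05), without scaling (-0.31) and with spike-in scaling (-0.39). A_55_P1985984, listed under the same RefSeq record, read 3.93, 3.85 and 4.14 against 3.46, 3.27 and 3.34, and was higher in the exercise group by 0.62 (SE 0.11, 95% interval 0.35 to 0.89, limma adjusted p = 0.0253) and by 0.52 against sedentary replicate 1. That rise was seen after scaling, since its unscaled signals overlapped, at 3904, 3708 and 4426 against 3408, 3571 and 3880, and over the scalings and background corrections its log2 fold change was between 0.07 and 0.71. It did not pass the threshold without scaling (0.15, limma adjusted p = 0.348), with spike-in scaling (0.07, limma adjusted p = 0.744) or with the deposited table (0.46, limma adjusted p = 0.0576). A_66_P136570, listed under another RefSeq record of Actg1, read 3.38, 3.59 and 3.57 against 3.42, 3.69 and 3.70. Its groups overlapped, with a log2 fold change of -0.09 (SE 0.12, 95% interval -0.38 to 0.19, limma adjusted p = 0.602). The spread among the Actg1 probes was visible inside single arrays. A_55_P2008907 exceeded A_55_P1985984 by 0.81, 0.97 and 0.84 on the exercise arrays and by 1.32, 1.35 and 1.33 on the sedentary arrays, groups that did not overlap, and no scaling by 1 factor an array can alter these differences. What distinguishes the transcripts these probes detect was not tested.

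A difference between 2 probes of 1 array does not depend on the scaling of that array by a factor, so Acta1 was set against the cytoplasmic actins within each array. Acta1 minus the mean of Actb and the brightest Actg1 probe was 3.56, 3.37 and 3.47 on the exercise arrays and 2.81, 2.74 and 2.69 on the sedentary arrays. The groups did not overlap, and the difference had widened by 0.72 in the exercise group, from 2.74 ± 0.06 to 3.47 ± 0.09 (SD, n = 3 each, exact two-sided permutation p = 0.1, the smallest that 3 arrays against 3 can give). It was 0.49 with quantile normalization and 0.76 with normexp background correction, and between 0.68 and 0.77 with any 1 array left out. The size depended on the probe taken for comparison. Against single probes the widening was 0.67 for Actb, 0.77 for the Actg1 probe A_55_P2008907, 0.31 for the called Actg1 probe A_55_P1985984 and 1.02 for A_66_P136570, with the groups apart each time. This shows unequal change of the probes and not which of them moved.

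Acta2, the alpha-actin of smooth muscle, gave the largest change of the family, and its probes moved in opposite directions. The brightest, A_51_P450957, read 8.40, 8.27 and 8.56 in the exercise group and 7.30, 7.09 and 6.87 in the sedentary group. Every exercise value was nearly 1 log2 unit or more above every sedentary value. Its means were 8.41 ± 0.15 and 7.09 ± 0.22 (SD, n = 3 each), a log2 fold change of 1.32 (SE 0.14, 95% interval 0.98 to 1.66, limma adjusted p = 0.0240), or 2.50-fold, and against sedentary replicate 1 it was 1.11. Its processed signal was 86733, 78933 and 94813 in the exercise group and 48954, 50553 and 44907 in the sedentary group, 1.80-fold higher without scaling, and over the scalings and background corrections its log2 fold change stayed between 0.77 and 1.41.

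The other Acta2 probes fell. A_52_P420504 read 4.08, 3.73 and 4.12 against 4.73, 4.88 and 4.72, a log2 fold change of -0.80 (SE 0.13, 95% interval -1.11 to -0.49, limma adjusted p = 0.0240). A_52_P210078 read -0.96, -1.27 and -1.12 against -0.32, -0.06 and -0.30, a log2 fold change of -0.89 (SE 0.12, 95% interval -1.19 to -0.59, limma adjusted p = 0.0240). For both, every exercise array lay below every sedentary array, as for 17.8% of all probes, and against sedentary replicate 1 the differences were -0.75 and -0.79. A_52_P210078 was the dimmest actin probe, with a processed signal between 107 and 132 in the exercise group and between 248 and 357 in the sedentary group, yet it was well above background on all 6 arrays. Both kept their sign under every scaling and background correction tried, from -1.35 to -0.71 and from -1.44 to -0.67.

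Within each array, the brightest Acta2 probe exceeded the mean of the other Acta2 probes by 6.84, 7.03 and 7.06 in the exercise group and by 5.10, 4.68 and 4.66 in the sedentary group. The probes named for this gene therefore moved apart by 2.16 log2 units (exact two-sided permutation p = 0.1, the smallest possible with n = 3 in each group). This disagreement was 1.87 with quantile normalization and 2.04 with normexp, and between 2.09 and 2.31 with any 1 array left out. No single direction can be given for Acta2 from these probes. The study had already listed Acta2 among the genes upregulated on these same arrays. The rise of its brightest probe is therefore no independent result.

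**Figure D2:**
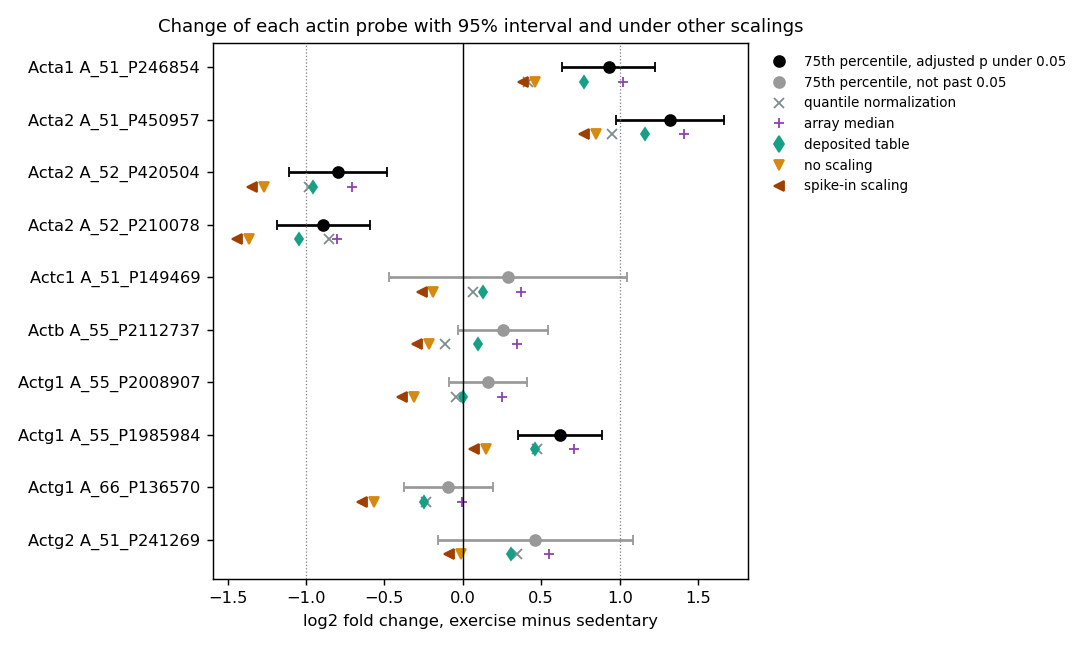
Log2 fold change of each actin probe, exercise minus sedentary, with its 95% interval from limma, in black where the limma adjusted p is under 0.05, and below it the value under 5 other scalings or value tables. The brightest Acta2 probe stands at 1.32 and the other Acta2 probes at -0.80 and -0.89, and the intervals of Actc1, Actb, Actg2 and the Actg1 probes other than A_55_P1985984 include 0.

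Actc1 and Actg2, the cardiac alpha-actin and the smooth muscle gamma-actin, did not pass the threshold and shared an uneven pattern in the exercise group. Actc1 read 5.95, 4.82 and 5.97 in the exercise group and 5.31, 5.28 and 5.29 in the sedentary group. Actg2 read 3.57, 2.68 and 3.62 against 2.91, 2.81 and 2.76. For both genes exercise replicate 2 lay below all sedentary arrays and the other exercise arrays above them, while the sedentary arrays differed little. The log2 fold change of Actc1 was 0.29 (SE 0.31, 95% interval -0.47 to 1.04, limma adjusted p = 0.547) and turned negative without scaling (-0.19) and with spike-in scaling (-0.26). That of Actg2 was 0.46 (SE 0.26, 95% interval -0.16 to 1.08, limma adjusted p = 0.246), with -0.01 and -0.09 under the same scalings. Without exercise replicate 2 the log2 fold changes were 0.67 for Actc1 and 0.77 for Actg2, each with a limma adjusted p of 0.0603, against a range of 0.09 to 0.67 and of 0.30 to 0.77 with any 1 array left out.

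The likeness of the members' patterns was described with the root mean square (RMS) difference between the profiles of 2 probes over the 6 arrays, each centred on its mean, for all 45 pairs of actin probes. A small RMS says only that the values went up and down together over these 6 arrays. The nearest pair was A_52_P420504 and A_52_P210078 of Acta2, at 0.092 log2 units. Next came Actb with the Actg1 probe A_55_P2008907 at 0.107, then Actc1 with Actg2 at 0.123, then Acta1 with the Actg1 probe A_55_P1985984 at 0.176. Of these 4 nearest pairs, 3 joined different genes. Only Acta2 and Actg1 had more than 1 probe, so most of the 45 pairs joined different genes in any case. Acta1 and the brightest Acta2 probe were 0.206 apart, and their difference within an array was 1.34, 1.36 and 1.24 in the exercise group and 1.72, 1.61 and 1.79 in the sedentary group. At the other end, the most distant pairs of the family were both within Acta2, at 1.07 and 1.12 between its brightest probe and the others.

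**Figure D3:**
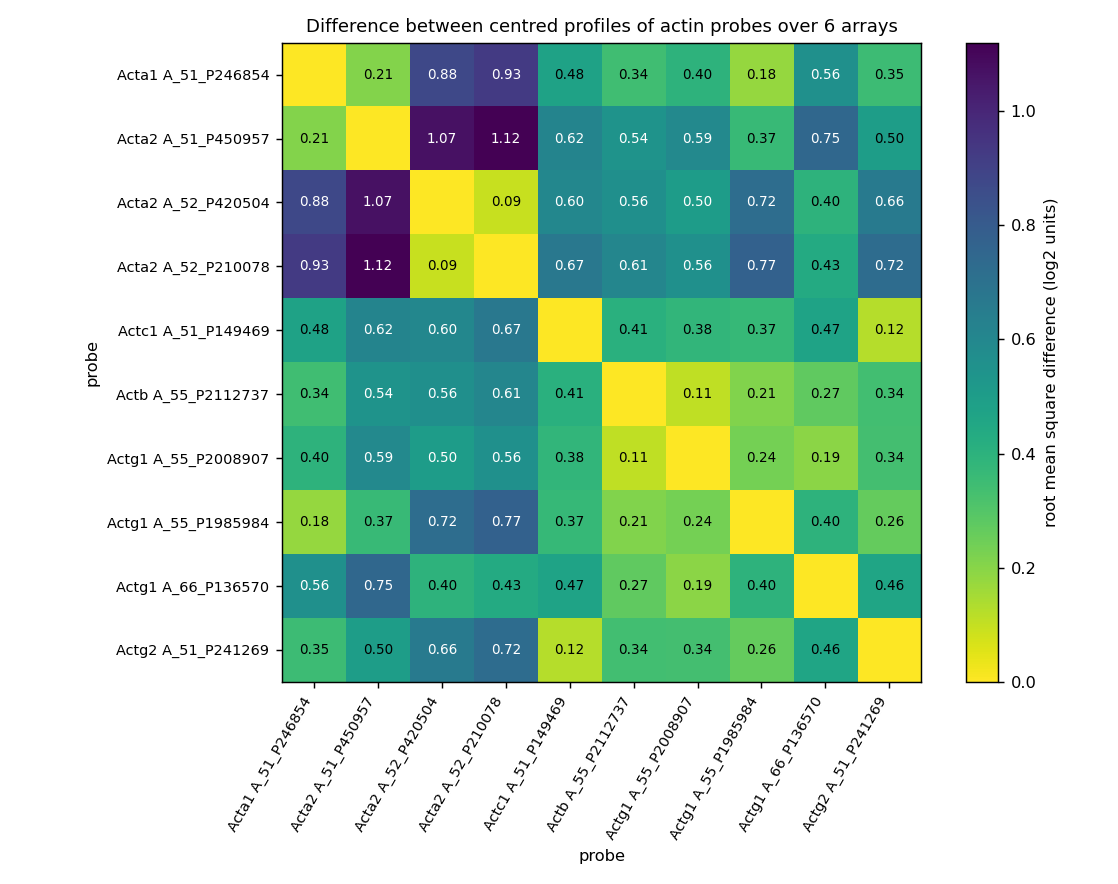
Root mean square difference, in log2 units, between the centred profiles of each pair of the 10 actin probes over 6 arrays. The lowest value is 0.092 between the dimmer Acta2 probes and the highest is 1.12 between 1 of them and the brightest Acta2 probe.

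The genes outside the family whose profiles lay nearest to each actin probe were taken from 23180 probes with a gene name. For Acta1 they were Fsd2 (RMS 0.012, log2 fold change 0.93), Kif3c (0.0238 and 0.90) and Tnnt3 (0.0306 and 0.91), the last of which encodes fast skeletal troponin T of the thin filament. In all 96 probes lay within 0.1 of Acta1. The brightest Acta2 probe had 10 such neighbours, with Fam131a (0.0627 and 1.30), BC062258 (0.0636 and 1.27) and Gm13315 (0.0789 and 1.25) the nearest. Genes chosen for a near profile must have log2 fold changes close to that of the probe, so this likeness adds nothing further. The nearest to A_52_P420504 were Gfra3 (0.0779 and -0.84), Myl6b (0.0879 and -0.74) and Dop1a (0.0887 and -0.74), and 5 probes lay within 0.1. For A_52_P210078, with 6 such probes, they were Cep192 (0.0701 and -0.79), Myh11 (0.0795 and -0.95), which encodes smooth muscle myosin heavy chain, and Rb1 (0.0908 and -0.95). The dimmer Acta2 probes thus had few near neighbours. Among the genes named, the smooth muscle marker Myh11 stood beside A_52_P210078 only, behind Cep192, and not beside A_52_P420504.

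The probes whose groups overlapped had either crowded or nearly empty surroundings. Actb had 949 probes within 0.1, with Cpt2 (RMS 0.0294), Tnfrsf21 (0.0305) and Tpm1 (0.0312) the nearest, and Tpm1 encodes a tropomyosin that lies along the actin filament. The Actg1 probe A_55_P2008907 had 1084, led by Inppl1 (0.0131), Nupr1 (0.0234) and Mlxipl (0.0306), and A_66_P136570 had 1070, led by Eid2 (0.0215), Rbm8a (0.0246) and Ankle2 (0.0252). These were patterns with little difference between the groups. The called Actg1 probe A_55_P1985984 had 200, led by Gpatch4 (0.0389), Zfp710 (0.0461) and Uck2 (0.0521). Actc1 had 1, Gabra2 (0.0685, log2 fold change 0.32), followed by Zbed4 (0.106) and Gria1 (0.111). Actg2 had 2, Meg3 (0.0772, log2 fold change 0.42) and Ccdc172 (0.0782), followed by Zan (0.108). Few probes therefore lay within 0.1 of Actc1 or Actg2. That limit depends on the size of the changes as well as on their pattern, and Actc1 and Actg2 were themselves 0.123 apart. The counts thus do not show how many probes shared their uneven exercise values.

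**Figure D4:**
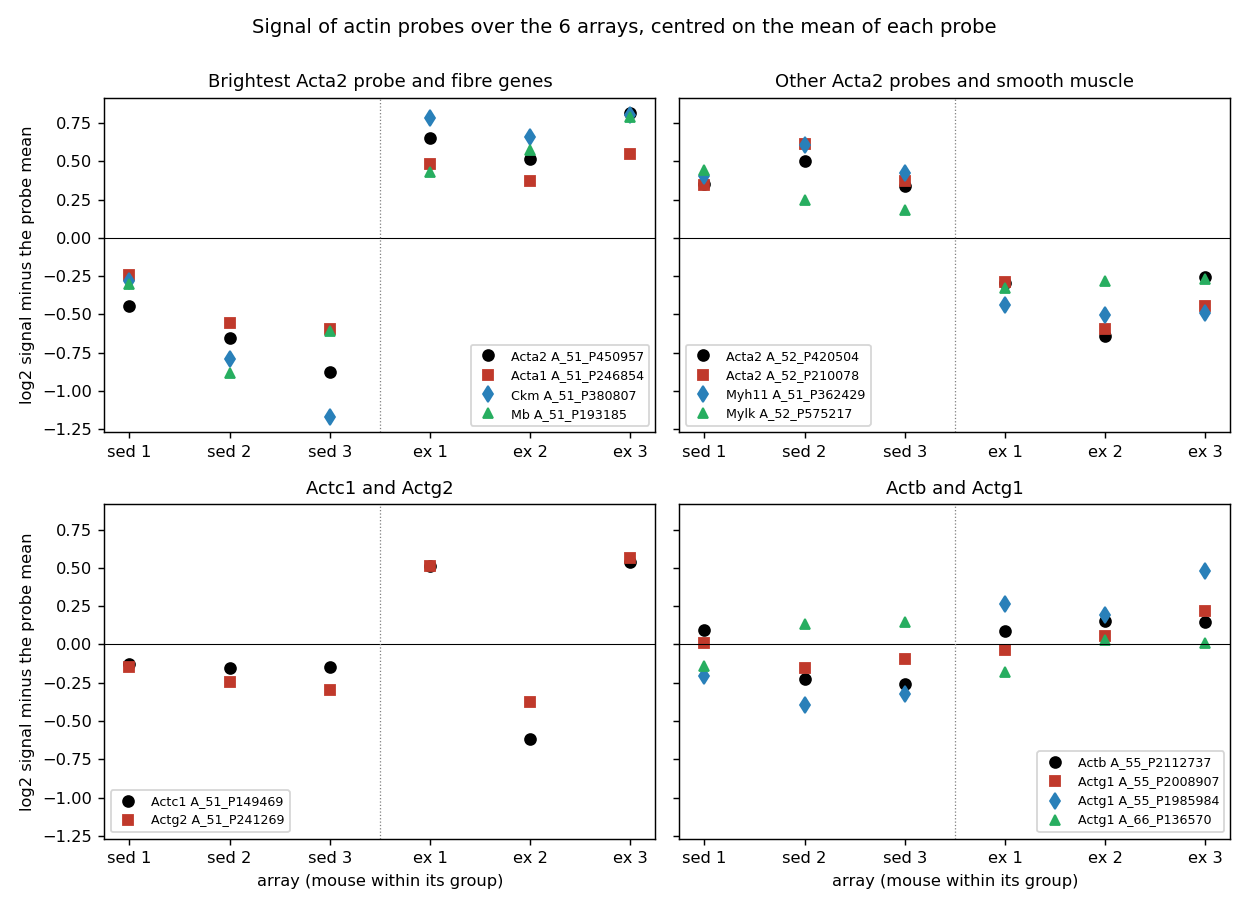
Log2 signal of each probe minus its own mean, on the 3 sedentary and 3 exercise arrays, in 4 panels: the brightest Acta2 probe and Acta1 with the fibre genes Ckm and Mb, the other Acta2 probes with the smooth muscle genes Myh11 and Mylk, Actc1 with Actg2, and Actb with the Actg1 probes. The dimmer Acta2 probes, Myh11 and Mylk were all called lower, so they lie below 0 on the exercise arrays and above it on the sedentary arrays. Being lower on every exercise array held for 17.8% of all probes, so the shared side of 0 does not mark them as alike. Synpo2, Smtn and Cald1 of the same smooth muscle list, with positive log2 fold changes, are not drawn. Actc1 and Actg2 share the low value on exercise replicate 2.

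Genes that build, fold and regulate actin, and marker genes of fibres and other cells, were read from lists, each gene by its probe with the highest mean. Over all these lists, markers included, 18 genes rose and 13 fell. These are 14.1% and 10.2% of 128 genes tested, against 10.5% and 5.65% of all probes. Most of the genes that fell were markers, with 7 of embryonic and denervated fibres, 3 of smooth muscle and 1 of satellite cells. At an unadjusted p under 0.05, 23 genes of all lists were higher and 28 lower, where 11671 of all 32726 probes passed in either direction. Without sedentary replicate 1 the counts over all lists were 22 and 18. With any of the other 5 arrays left out, or with the strip as a block, they were 0 and 0. Of 16 genes of the thin filament that were tested, 4 rose, 1 fell and the median log2 fold change was 0.04, against 0.02 over all probes. These are 25% and 6.25% of the list. Tmod4, a tropomodulin that caps the pointed end of the thin filament in skeletal muscle, rose by 1.61 (SE 0.34, limma adjusted p = 0.0329), but its within-strip value was 0.80. On the exercise arrays it read 7.0, 6.78 and 7.03, and on the sedentary arrays 6.13, 5.07 and 4.77. The study had listed Tmod4 too among the upregulated genes of these arrays, so its rise is no independent result. Its relative Tmod1 had a log2 fold change of 0.32 (limma adjusted p = 0.0523), with the groups apart, and -0.15 without scaling. The 3 subunits of the barbed end capping protein in the list rose, with 0.34 for Capza1, 0.47 for Capza2 and 0.46 for Capzb (limma adjusted p = 0.0434, 0.0323 and 0.0433), but the sign of each turned without scaling (-0.14, -0.0027 and -0.0109) and with spike-in scaling (-0.21, -0.0787 and -0.087). None of them passed the threshold with quantile normalization or the deposited table. Their within-strip values were 0.27, 0.55 and 0.39. Capping protein and tropomodulins together hold both ends of the thin filament. Klhl40, which stabilizes thin filament proteins, fell by 0.50 (limma adjusted p = 0.0420), with a within-strip value of -0.28. Neb, the giant protein that spans the thin filament, had -0.06 (limma adjusted p = 0.808), and Cfl2, the muscle cofilin that severs filaments, -0.11 (limma adjusted p = 0.420), with 0.27 on its other probe.

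Among 24 tested genes of actin nucleation and turnover, 3 rose and 0 fell, with a median of 0.06. The 12.5% that rose are close to the 10.5% of all probes. At an unadjusted p under 0.05 there were 3 in each direction. Those that rose were Pfn2, a profilin that binds actin monomers, by 0.77 (SE 0.14, limma adjusted p = 0.0252), the formin Fhod1 by 0.67 (limma adjusted p = 0.0318), and Arpc5l, a subunit of the branching complex Arp2/3, by 0.54 (limma adjusted p = 0.0240). Their within-strip values were 0.51, 0.40 and 0.48, and Arpc5l was at -0.0090 with spike-in scaling. The general cofilin Cfl1 had 0.08 (limma adjusted p = 0.520), and -0.27 on its other probe. In the 16 tested genes of actin folding and maturation 4 rose, 25% of the list, and 0 fell, with a median of 0.03, and 6 and 0 at an unadjusted p under 0.05. All 4 encode subunits of prefoldin, the chaperone that hands new actin to its folding chamber, with 0.59 for Pfdn1 (limma adjusted p = 0.0468), 0.43 for Pfdn6 (limma adjusted p = 0.0276) and 0.38 for Pfdn2 (limma adjusted p = 0.0310). The within-strip values of these 3 were 0.29, 0.37 and 0.41. The prefoldin genes Vbp1 and Pfdn5 had 0.29 and 0.05 and were not called (limma adjusted p = 0.128 and 0.798). Nor was any listed gene of the folding chamber, and these ran from -0.19 for Cct3 to 0.02 for Cct6a. Setd3, which methylates actin at a histidine, had 0.23 (limma adjusted p = 0.116) and Naa80, which acetylates its first residue, 0.12 (limma adjusted p = 0.525). The direction of Pfdn2, Pfdn4 and Pfdn6 depended on the scaling, since they were at -0.0877, -0.11 and -0.0474 without it, and Pfdn1 was at 0.12. None of the 4 called prefoldin genes passed the threshold with the deposited table. With quantile normalization only Pfdn4 did (limma adjusted p = 0.0427).

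Of the 10 genes around SRF, 1 rose and 1 fell, 10% in each direction. Srf itself read 2.74, 2.67 and 2.87 on the exercise arrays and 2.33, 2.22 and 2.40 on the sedentary arrays. All exercise values were the higher ones, with a log2 fold change of 0.44 (SE 0.10, limma adjusted p = 0.0347), but the sign turned without scaling (-0.03) and with spike-in scaling (-0.11). The within-strip value of Srf was 0.43. Its cofactors Mrtfa and Mrtfb had 0.21 (limma adjusted p = 0.230) and -0.13 (limma adjusted p = 0.433), the latter with a probe at 0.13 too, and Fhl2, a LIM domain protein that binds SRF, fell by 0.72 (SE 0.15, limma adjusted p = 0.0318), with a within-strip value of -0.42. The median of this list was 0.03. None of the 7 tested actin-related protein genes passed the threshold, and 1 fell at an unadjusted p under 0.05.

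Markers of muscle fibres and of the other cells of the tissue moved as follows. Of 7 genes of mature skeletal fibres, 5 rose, 71.4% of the list against 10.5% of all probes, with a list median of 0.81. Among them Ckm rose by 1.50, Mb by 1.20 and Myh4 by 0.83 (limma adjusted p = 0.0240, 0.0240 and 0.0376). Within the strip these 3 were at 1.03, 0.90 and 0.45. Myh4 did not pass the threshold with quantile normalization (0.34, limma adjusted p = 0.128) or without scaling (0.36, limma adjusted p = 0.0758). Nor did it with spike-in scaling (0.28, limma adjusted p = 0.181) or the deposited table (0.67, limma adjusted p = 0.0579). Of 9 genes of embryonic and denervated fibres, 7 fell, 77.8% of the list against 5.65% of all probes, with a median of -1.29. All 9 were lower on every exercise array, as were 17.8% of all probes. The study had already listed Chrng, Myh3, Chrnd and Sln among the genes most downregulated on these same arrays. The counts of this list are therefore no independent result. Chrng, the fetal acetylcholine receptor subunit, fell by 3.62 (limma adjusted p = 0.0311), Myh3, embryonic myosin, by 2.35 (limma adjusted p = 0.0419) and Chrnd, another receptor subunit, fell by 1.92 (limma adjusted p = 0.0366). The within-strip values were smaller, -1.82 for Chrng, -1.55 for Myh3 and -0.87 for Chrnd. The other Myh3 probe had 0.92. Actc1, the actin that developing fibres make, had 0.29 on the same scale, with overlapping groups.

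Of the 9 smooth muscle markers, which bear on Acta2 and Actg2, 3 fell and 1 rose, with a median of -0.52. These are 33.3% and 11.1% of the list, against 5.65% lower and 10.5% higher of all probes. Myh11 read -0.37, -0.43 and -0.42 in the exercise group and 0.47, 0.68 and 0.49 in the sedentary group. It fell by 0.95 (SE 0.09, limma adjusted p = 0.0240), and its other probes had -0.96 and -0.82, all lower on every exercise array, and its within-strip value was -0.88. These values are close to the -0.80 and -0.89 of the dimmer Acta2 probes and opposite in sign to the 1.32 of the brightest. The remaining markers did not all move the same way. Lmod1 fell by 0.76 (limma adjusted p = 0.0393) but was well above background on only 1 of 3 exercise arrays, and its within-strip value was -0.74. Synpo2 rose by 0.71 (limma adjusted p = 0.0255), or 0.46 within the strip, while its other probe had -0.52 (limma adjusted p = 0.0348). Tagln, with -0.52 (limma adjusted p = 0.0676), and Cnn1, with -1.67 (SE 0.54, limma adjusted p = 0.0830), did not pass. Neither did Myl9 (-0.27), Smtn (0.08) and Cald1 (0.07), and Mylk was the third to fall, by 0.58 (limma adjusted p = 0.0246), or by 0.74 within the strip. The summed scaled signal of the 9 markers, on a linear scale, was between 112 and 119 in the exercise group and between 124 and 145 in the sedentary group. The brightest probes, those of Smtn, Myl9 and Tagln, made up most of this sum, and none of them was called. The sum therefore says little about the called markers, and its part in the Acta2 values was not tested.

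Markers of the remaining cell types gave 0 calls for the 5 genes of pericytes, the 8 of fibroblasts, the 6 of endothelium, the 6 of macrophages and the 3 tested of red blood cells. At an unadjusted p under 0.05 there were 0 higher and 2 lower in pericytes and 0 in the other lists named. Summed scaled signals overlapped between the groups for pericytes, at 38.9 to 55.1 in the exercise group and 41.5 to 44.3 in the sedentary group, and for fibroblasts, at 754 to 826 and 703 to 973. Of the 2 tested satellite cell genes Pax7 fell by 0.60 (SE 0.11, limma adjusted p = 0.0267), with a within-strip value of -0.64.

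**Figure D5:**
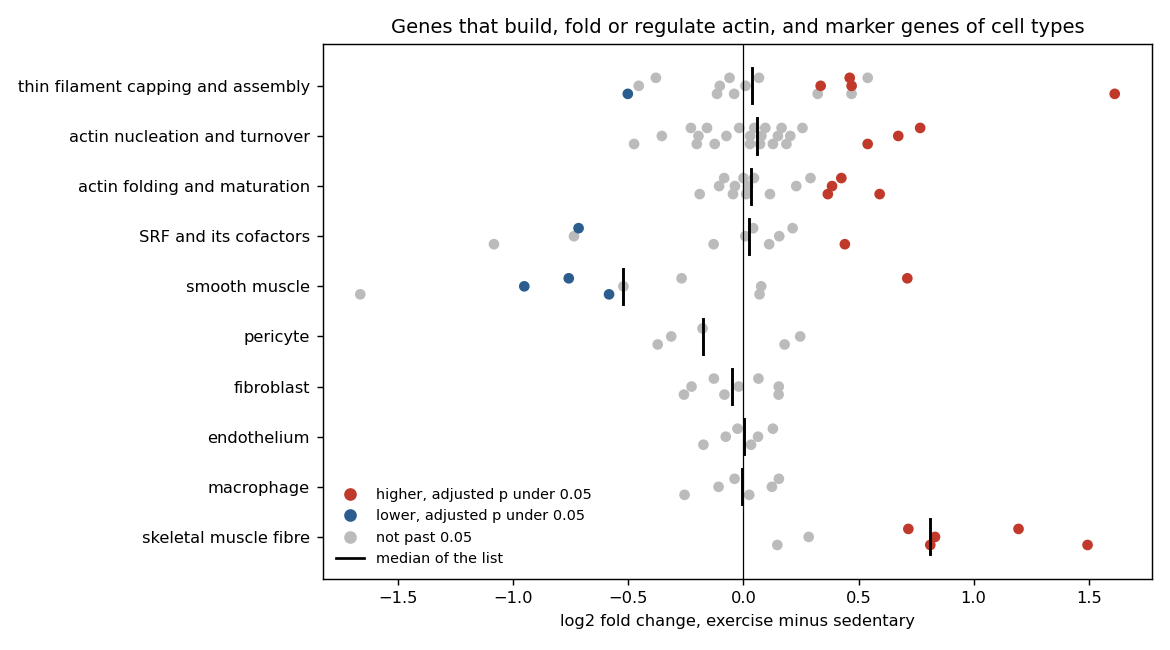
Log2 fold changes, exercise minus sedentary, of the genes of 10 lists, 1 point a gene, coloured red (higher) or blue (lower) where the limma adjusted p is under 0.05 and grey otherwise, with a black line at the median of each list. Skeletal fibre genes lie above 0 and most smooth muscle genes below it, and the medians of the lists that build, fold and regulate actin lie near 0.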

How the data were processed

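Quadriceps RNA of 6 male AR97Q mice, 3 exercise and 3 sedentary by GEO's labels, was labelled with Cy3 and hybridized to Agilent SurePrint G3 mouse arrays. The authors deposited 1 scanner file per array from Feature Extraction 12.1.0.3, in which the processed signal is an intensity on a linear scale after background subtraction. They also deposited a table of intensity values for all arrays, each column of which was the processed signal times 1 factor, between 1.33 and 1.88.

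Here log2 of the processed signal was taken, 3671 control spots of 62976 and outlier spots were left out, values of a probe's spots were averaged, and the 75th percentile of the array was taken off. A missing value removed 22 probes. The 32726 of 56583 probes that were well above background on 3 or more of the 6 arrays were fitted singly by lmFit and eBayes of limma 3.58.1, run in R 4.3.3 (two-sided, no covariates, Benjamini-Hochberg over all of them). Accessions without version were matched to RefSeq names of GRCm38.p6, which named 34574 probes. That table served for names only, and promoter coordinates and sequence come from RefSeq's promoter table of the same build. DEGs follow the study's rule of FDR under 0.05 with a log2 fold change of 1 or more in either direction. Only the thresholds were taken from the study, and its counts were not reproduced. The study counted genes and reported more downregulated than upregulated, whereas here single probes were counted and more were upregulated. Differences within an array were compared with an exact permutation test. P-values measure the spread between 3 mice per group.

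Named genes are all actin probes, up to 3 genes per list with the largest change among those with FDR under 0.05 and groups apart, 13 further genes chosen for their role, and the 3 genes nearest in profile to each actin probe. Mylk, Myl9, Smtn, Cald1, Capza1, Capzb, Pfdn4, Pfdn5, Vbp1, Cct3, Cct6a and Sln were named after their values were seen. Members and lists were chosen with earlier results of these data known. Alternatives were quantile normalization, the array median, no scaling, 8 spike-in probes, normexp (offset 50), filters, 1 probe a gene, the deposited table, blocks of replicate number and strip, array weights, trend and robust eBayes, the methods' t-test, no fold change minimum, and each array left out. The scripts were tested on simulated data.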

Additional observations from a re-analysis of the deposited data

How the results depend on the processing

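The within-array differences of Acta1 against the cytoplasmic actins and of the brightest Acta2 probe against its others were also computed under alternatives. The array median, no scaling, spike-in scaling and the deposited table cannot alter them by construction. With quantile normalization, with normexp and with each array left out, which can alter them, both differences kept their direction. The number of actin probes upregulated as DEGs, 1, became 0 with quantile normalization, no scaling, spike-in scaling and the strip as a block, 2 with the array median and with array weights, and 3 with no fold change minimum, and ranged from 0 to 2 with 1 array left out. The number downregulated, 0, became 2 with no scaling, spike-in scaling and no fold change minimum and 1 with the deposited table, and was 0 with any array left out. Of list genes higher at FDR under 0.05, 18, there were 7 with quantile normalization, 4 with no scaling, 3 with spike-in scaling, 8 with the deposited table, 0 with the strip as a block, 3 with the methods' t-test and 0 to 22 with 1 array left out. Of list genes lower, 13, there were 74 with no scaling, 69 with spike-in scaling, 26 with normexp, 25 with the deposited table, 26 with array weights, 0 with the strip as a block, 2 with the methods' t-test and 0 to 18 with 1 array left out. With the strip as a block, 3 actin probes were higher and 2 lower at an unadjusted p under 0.05, and 16 and 16 list genes. Of all 32726 probes, 6188 passed in either direction in that fit.

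With the replicate number as a block there were 0 actin DEGs and 0 list genes in either direction. The lowest limma adjusted p of an actin probe was 0.0623. At an unadjusted p under 0.05 there were 3 actin probes higher and 2 lower, and 20 and 25 list genes. Of all 32726 probes, 10813 passed in either direction in that fit. Samples with the same number had deviations from their group means that correlated at 0.0151, 0.0850 and 0.0253, so the numbers were not taken as pairing the mice.

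The exercise arrays were dimmer, and the scaling shifted all probes. The median log2 fold change of all probes was 0.02, and it was -0.01 with quantile normalization, 0.11 with the array median, 0.10 with normexp, -0.14 with the deposited table, -0.45 with no scaling and -0.53 with spike-in scaling. Of all probes, 513 were upregulated and 323 downregulated, against 719 and 263 with the array median, 226 and 68 with normexp, 294 and 658 with the deposited table, 163 and 2697 with no scaling, 152 and 3675 with spike-in scaling, 32 and 28 with the methods' t-test, 0 and 3 with the strip as a block, 0 and 0 with the replicate block, 861 and 586 without sedentary replicate 1, and 0 and at most 1 without any other array. With no scaling the sign turned for Actc1 (-0.19), Actg2 (-0.0096), Actb (-0.22), the Actg1 probe A_55_P2008907 (-0.31), Tmod1 (-0.15), Capza2 (-0.0027), Cfl1 (-0.39), Pfdn2 (-0.0877), Pfdn6 (-0.0474), Setd3 (-0.24), Naa80 (-0.36), Srf (-0.0321) and Mrtfa (-0.26). With spike-in scaling it turned for the same genes, to -0.26 for Actc1, -0.0857 for Actg2, -0.29 for Actb, -0.39 for A_55_P2008907, -0.23 for Tmod1, -0.0787 for Capza2, -0.47 for Cfl1, -0.16 for Pfdn2, -0.12 for Pfdn6, -0.32 for Setd3, -0.43 for Naa80, -0.11 for Srf and -0.34 for Mrtfa, and for Arpc5l (-0.0090). Other changes of sign were those of A_55_P2008907 (-0.0456), Actb (-0.11) and Cfl1 (-0.0695) with quantile normalization, Cfl1 (-0.0797) and Naa80 (-0.0424) with the deposited table, A_66_P136570 (0.0927), Neb (0.0568) and Cfl2 (0.0203) with the strip as a block, Neb with the array median (0.0281), without exercise replicate 2 (0.089) and without sedentary replicate 3 (0.02), and Lmod1 with normexp (0.10). Apart from the shifts that scaling sets by construction, the cause was not tested. Of the other values of 41 log2 fold changes under alternatives, 507 kept their side of the threshold, 241 lost and 28 gained a limma adjusted p under 0.05, all with the same direction. Among the named genes Lmod1 was limited by its signal, well above background on 1 of 3 exercise arrays.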
